A study of Mus musculus with 12 samples.

Results

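The chains of the IL-4 and IL-13 receptors and the first steps of their signaling were described in bone marrow-derived macrophages (BMDMs) as a set of 10 genes, out of 17723 in the count table. The set was chosen by gene name from what is known of the pathway, but with earlier results of these data known. It holds the receptor chains Il4ra, Il13ra1 and Il2rg, the Janus kinases Jak1, Jak2, Jak3 and Tyk2, the transcription factor Stat6, the adaptor Irs2 and the phosphatase Ptpn6. All 10 passed the filter on low counts that left 16306 genes to test.

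BMDMs are macrophages grown in culture from bone marrow, here of wild-type C57BL/6 mice (C57Bl/6J in the methods of the study) aged 8-10 weeks. The cultures received IL-13 (2 ng/ml) with DKK1 (30 ng/ml), DKK1 alone, IL-13 alone, or nothing (untreated), each for 24 h, with 3 libraries in each of 4 groups. IL-13 is the type 2 cytokine that this receptor binds, and DKK1 is a secreted protein best known as an inhibitor of Wnt signaling. The study asked how DKK1 acts on macrophages alone and beside IL-13. The values are of RNA, not of receptor protein or of STAT6 phosphorylation.

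IL-4 binds IL-4Rα, which then pairs with the common γ chain encoded by Il2rg (type I receptor) or with IL-13Rα1 (type II receptor), whereas IL-13 binds IL-13Rα1 first and signals through the type II receptor. IL-4Rα carries JAK1, the common γ chain carries JAK3, and IL-13Rα1 carries TYK2 or JAK2. The kinases phosphorylate the tail of IL-4Rα, where STAT6 docks, is phosphorylated and moves to the nucleus to switch on genes of alternative macrophage activation. IRS-2, recruited to the type I receptor in particular, leads to PI3K, and SHP-1, encoded by Ptpn6, removes phosphate from the pathway's proteins.

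To show where transcription of the 3 receptor chains begins, the 250 bases before each start are printed from RefSeq (GRCm38.p6), in the gene's own direction. They lie at chr7:125552021-125552270 on the plus strand for Il4ra, at chrX:36111858-36112107 on the plus strand for Il13ra1 and at chrX:101268256-101268505 on the minus strand for Il2rg. Capitals mark matches to ATGNAAAT on either strand, of which the form with C at the open base is known as the octamer of POU-domain factors.
Il4ra: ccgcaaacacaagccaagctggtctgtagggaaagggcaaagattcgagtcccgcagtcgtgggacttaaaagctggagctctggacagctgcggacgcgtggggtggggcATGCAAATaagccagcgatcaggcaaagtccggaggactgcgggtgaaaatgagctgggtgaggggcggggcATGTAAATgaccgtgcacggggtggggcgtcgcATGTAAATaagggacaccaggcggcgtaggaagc
Il13ra1: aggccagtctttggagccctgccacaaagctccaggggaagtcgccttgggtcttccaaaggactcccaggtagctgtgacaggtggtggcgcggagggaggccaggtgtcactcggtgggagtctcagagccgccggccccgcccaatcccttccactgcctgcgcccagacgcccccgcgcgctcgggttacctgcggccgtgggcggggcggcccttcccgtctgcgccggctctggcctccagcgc
Il2rg: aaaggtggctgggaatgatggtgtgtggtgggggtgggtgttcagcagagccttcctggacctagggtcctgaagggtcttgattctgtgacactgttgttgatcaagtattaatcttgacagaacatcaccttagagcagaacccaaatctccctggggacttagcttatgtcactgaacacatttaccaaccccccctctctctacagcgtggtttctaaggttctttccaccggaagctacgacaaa

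Il4ra held 3 such matches, beginning 139, 67 and 34 bases before the start, and the others held 0. Of all 32851 RefSeq windows of 250 bases, 5.03% held 1 or more matches and 0.0365% (12 windows) held 3 or more. These letters were picked after the Il4ra sequence had been read, so the shares are a description only. The stretches also differed in base composition, with 59.6% G or C in Il4ra, 70.8% in Il13ra1 and 49.2% in Il2rg, beside a median of 52.4% over all windows. Windows of 300 bases, which add 50 bases after the start, were searched for 4 further motifs on both strands. The letters TTCNNNNGAA (STAT6 type) stood in 6.95% of all 32851 windows, TTCNNNGAA (GAS) in 8.30%, TGANTCA (AP-1) in 7.81% and GAAANNGAAA (ISRE type) in 3.44%, and all 10 windows of the set held 0 matches to each. This says only that these letters are not in those windows.

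Il4ra and Il13ra1, which together form the type II receptor, were both higher with DKK1 and both lower with IL-13, whereas Il2rg was higher with either. In IL-13 + DKK1 cells Il4ra libraries overlapped those with DKK1, Il13ra1 libraries overlapped the untreated ones, and Il2rg was at its highest. Levels are given in CPM (counts scaled by TMM to a common library size), and differences as log2 fold changes ± SE from the quasi-likelihood test of edgeR, with p-values adjusted by Benjamini-Hochberg over 16306 genes. A gene is said to rise or fall where its adjusted p was under 0.05, and is called where its absolute log2 fold change was also above 1. In bulk samples, fewer cells of a type and less RNA per cell cannot be told apart. The summed level of 8 macrophage markers moved as well, at 33252 to 34306 CPM with IL-13 + DKK1, 44053 to 44732 CPM with DKK1, 18984 to 20030 CPM with IL-13 and 27137 to 27823 CPM in untreated cells, and its part in these results was not tested. Lyz2, which encodes lysozyme, made up most of it, with means of 23210 CPM with IL-13 + DKK1, 32170 CPM with DKK1, 11170 CPM with IL-13 and 17040 CPM in untreated cells. Of the 8 markers 6 rose with DKK1 and Cd68 and Mertk fell (log2 -0.43 and -0.41). With IL-13 over untreated cells 1 rose (Cd68, log2 0.32) and 6 fell, and with both factors 4 rose and 3 fell.

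**Figure D1:**
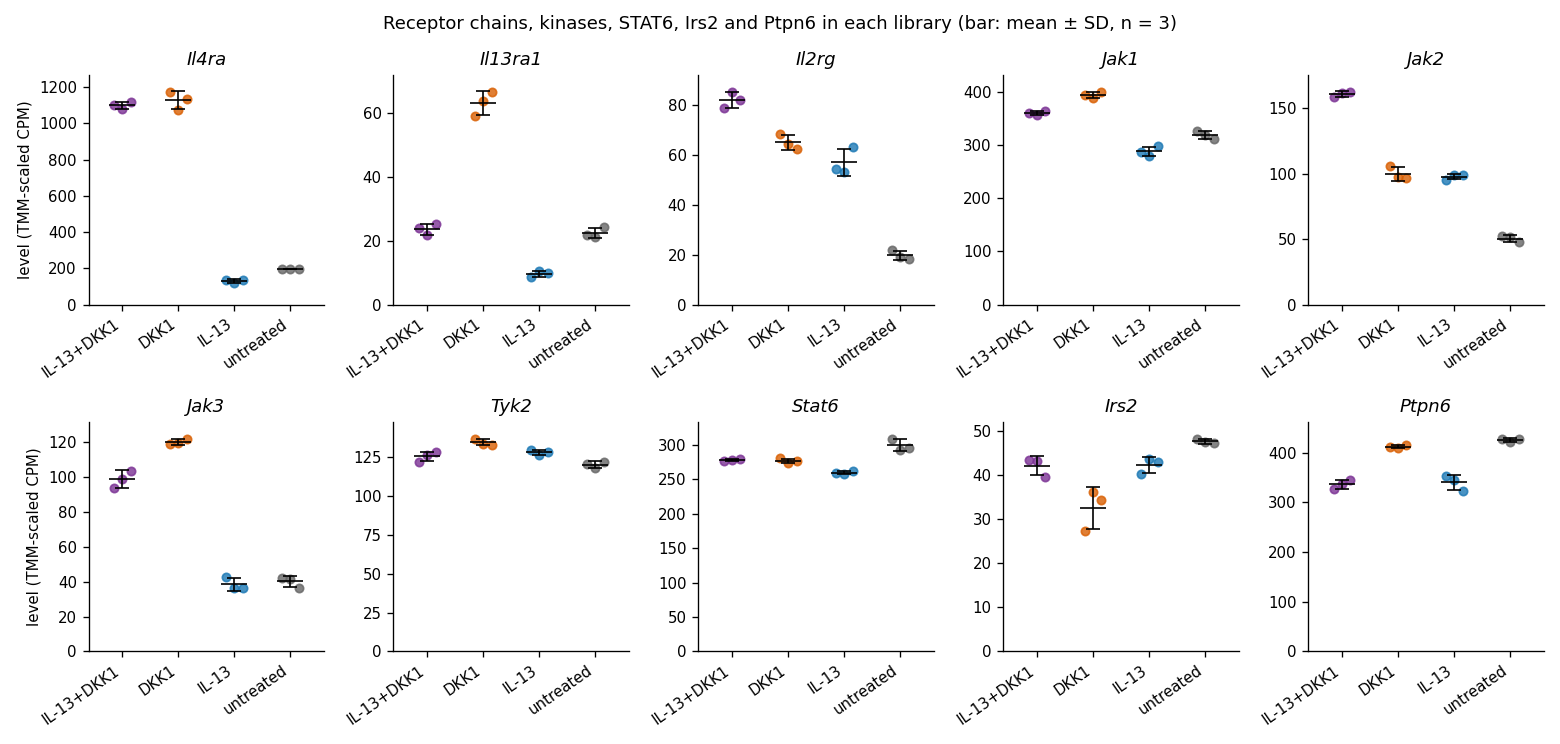
Level of each of the 10 genes in every library (y axis, TMM-scaled CPM from 0) in the 4 groups (x axis), with points for libraries and bars for the mean ± SD (n = 3). Il4ra lay between 1075 and 1174 CPM in the 6 libraries with DKK1 and between 120.2 and 199 CPM in the other 6.

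Il4ra (chromosome 7, 125151079 to 125182844, plus strand, GRCm39) had 1104, 1080 and 1117 CPM with IL-13 + DKK1 and 1174, 1075 and 1136 CPM with DKK1. It had 136, 120.2 and 137 CPM with IL-13, and 199, 198 and 196 CPM in untreated cells. The groups with DKK1 overlapped each other, and each lay far above the groups without it. Il4ra rose 5.71-fold with DKK1 over untreated cells (log2 2.51 ± 0.05, adjusted p = 2.97e-20) and 8.38-fold in IL-13 + DKK1 cells over IL-13 cells (log2 3.07 ± 0.05, adjusted p = 3.27e-21). It fell with IL-13 alone to 0.664 of the untreated level (log2 -0.59 ± 0.04, adjusted p = 3.15e-10). That fall was not seen beside DKK1, where IL-13 + DKK1 cells differed from DKK1 cells by -0.04 ± 0.04 (adjusted p = 0.54).

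Il13ra1 (chromosome X, 35375461 to 35435331, plus strand) had 23.9, 21.9 and 25.3 CPM with IL-13 + DKK1 and 59.2, 63.9 and 66.7 CPM with DKK1. It had 8.77, 10.7 and 9.79 CPM with IL-13, against 21.9, 21.2 and 24.3 CPM in untreated cells. Only the IL-13 + DKK1 and the untreated libraries overlapped. Il13ra1 rose 2.81-fold with DKK1 (log2 1.49 ± 0.07, adjusted p = 2.26e-13) and fell with IL-13 to 0.434 of the untreated level (log2 -1.21 ± 0.08, adjusted p = 1.02e-10). With both it differed from untreated cells by 0.08 ± 0.08 (adjusted p = 0.447). IL-13 lowered it beside DKK1 too (log2 -1.42 ± 0.07, adjusted p = 1.54e-12, IL-13 + DKK1 against DKK1), and DKK1 raised it beside IL-13 (log2 1.28 ± 0.08, adjusted p = 2.26e-11).

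Il2rg (chromosome X, 100307984 to 100311861, minus strand), whose product is shared with the receptors of other cytokines such as IL-2 and IL-7, had 78.5, 85.2 and 82.0 CPM with IL-13 + DKK1. It had 68.1, 64.3 and 62.3 CPM with DKK1, 54.4, 53.1 and 63.2 CPM with IL-13, and 21.8, 19.0 and 18.4 CPM in untreated cells. Every treated library was above every untreated one, and the DKK1 and IL-13 libraries overlapped. Il2rg rose 3.28-fold with DKK1 (log2 1.72 ± 0.07, adjusted p = 9.11e-15), 2.88-fold with IL-13 (log2 1.53 ± 0.07, adjusted p = 1.47e-13) and 4.15-fold with both (log2 2.05 ± 0.07, adjusted p = 3.29e-16). Between DKK1 and IL-13 cells the difference was 0.19 ± 0.07 (adjusted p = 0.0177), which missed the threshold without IL-13 replicate 1, IL-13 replicate 2 or DKK1 replicate 1 (adjusted p up to 0.11), or with library size alone as the scaling (0.09, adjusted p = 0.233).

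T cells also carry Il2rg, and of 8 T and NK cell markers Cd3e, Cd3d, Cd3g, Cd8a and Ncr1 were not found by name in the count table. The sum of the others (Cd4, Il7r and Lck) was 22.5 to 26 CPM with IL-13 + DKK1, 26.6 to 34.6 CPM with DKK1, 93.1 to 109 CPM with IL-13 and 70.1 to 82.5 CPM in untreated cells. Il7r made up most of it, with means of 18.3 CPM with IL-13 + DKK1, 19.1 CPM with DKK1, 96.6 CPM with IL-13 and 66.9 CPM in untreated cells. Cd4 was ordered otherwise, with means of 5.42 CPM with IL-13 + DKK1, 12.1 CPM with DKK1, 4.38 CPM with IL-13 and 9.26 CPM in untreated cells, while Lck, a T cell kinase, stayed below 0.5 CPM in every library. The part of T cells in these levels was not tested. The summed level of 7 neutrophil markers was 532 to 655 CPM with IL-13 + DKK1, 339 to 359.9 CPM with DKK1, 315 to 460.4 CPM with IL-13 and 457 to 501 CPM in untreated cells. S100a8, S100a9 and Ltf made up most of it, with means of 128, 244 and 183 CPM with IL-13 + DKK1. In IL-13 + DKK1 over untreated cells S100a8 and S100a9 rose (log2 0.41 and 0.45), whereas Camp and Ly6g fell (log2 -0.84 and -1.43). The summed level of 6 stromal markers lay between 55.5 and 168 CPM in all libraries. Summed markers of B cells, mast cells and basophils, dendritic cells and megakaryocytes reached at most 7.52 CPM in any library.

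To compare the chain of the type I receptor with that of the type II receptor, Il2rg was divided by Il13ra1 per kb of exon in each library. The length was that of all annotated exons of a gene, 2387 bases for Il2rg and 4729 bases for Il13ra1, and the size of the ratio depends on it. The ratio was 6.50, 7.71 and 6.42 with IL-13 + DKK1 (mean 6.88 ± 0.721), and 2.28, 1.99 and 1.85 with DKK1 (mean 2.04 ± 0.218). It was 12.3, 9.88 and 12.8 with IL-13 (mean 11.7 ± 1.56), and 1.97, 1.78 and 1.5 in untreated cells (mean 1.75 ± 0.237, SD, n = 3 each). The ratio was high wherever IL-13 was present, and the IL-13 libraries lay above all others. Over 6 comparisons an exact two-sided permutation test on log2 ratios gave its smallest possible p, 0.1 (adjusted p = 0.12), for 5, with log2 differences of 2.73 for IL-13 and 1.98 for IL-13 + DKK1 over untreated cells and -0.76 for IL-13 + DKK1 over IL-13 cells. DKK1 and untreated cells differed by 0.23 (exact p = 0.2). With 3 libraries against 3 no comparison could reach 0.05.

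**Figure D2:**
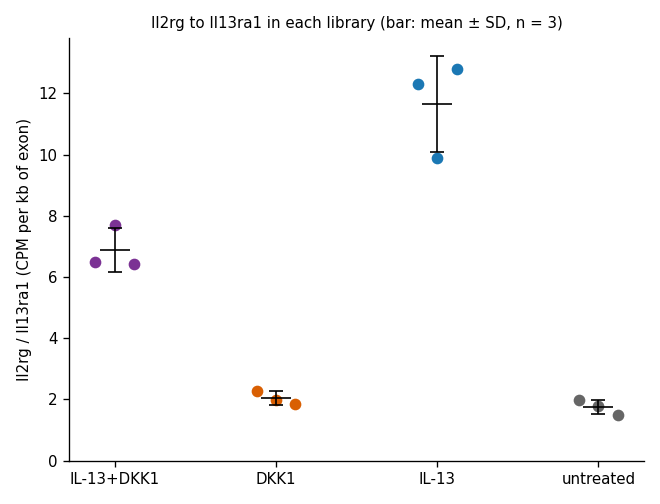
Il2rg divided by Il13ra1, both as CPM per kb of exon (y axis, from 0), in each library of the 4 groups (x axis), with bars for the mean ± SD (n = 3). The means were 6.88 with IL-13 + DKK1, 2.04 with DKK1, 11.7 with IL-13 and 1.75 in untreated cells.

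Among the kinases Jak2 and Jak3 changed most, and Jak1 and Tyk2 changed little. Jak2 (chromosome 19, 29228677 to 29290505, plus strand) had 158, 161 and 162 CPM with IL-13 + DKK1, 106, 97.6 and 96.3 CPM with DKK1, 95.3, 98.8 and 98.7 CPM with IL-13, and 52.1, 51.5 and 47.7 CPM in untreated cells. The groups with 1 factor overlapped, and IL-13 + DKK1 libraries were above both. Jak2 rose 1.98-fold with DKK1 (log2 0.99 ± 0.05, adjusted p = 5.13e-14), 1.94-fold with IL-13 (log2 0.95 ± 0.05, adjusted p = 1.88e-13) and 3.19-fold with both (log2 1.67 ± 0.04, adjusted p = 5.55e-18). Its DKK1 value lay just under the fold threshold, and reached 1.00 to 1.03 when untreated replicate 1 or 2, DKK1 replicate 2 or 3, or IL-13 + DKK1 replicate 3 was left out, which brought the called genes of the set to 5.

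Jak3 (chromosome 8, 72123007 to 72143225, plus strand), the partner of the common γ chain, had 93.5, 98.7 and 104 CPM with IL-13 + DKK1 and 119, 119.6 and 122 CPM with DKK1. It had 42.8, 36.1 and 36.5 CPM with IL-13 and 42.4, 41.7 and 36.6 CPM in untreated cells. Jak3 thus moved with DKK1, and the IL-13 and untreated libraries overlapped. It rose 2.99-fold with DKK1 over untreated cells (log2 1.58 ± 0.06, adjusted p = 3.75e-15) and 2.57-fold in IL-13 + DKK1 cells over IL-13 cells (log2 1.36 ± 0.06, adjusted p = 5.74e-14), and differed by -0.06 ± 0.06 with IL-13 alone (adjusted p = 0.447). The annotation places Insl3 within it on the same strand and Unc13a and B3gnt3 opposite. Insl3 had 161 counts with DKK1 and 55 in untreated cells, beside 11534 and 4352 counts of Jak3, and how reads of overlapping genes were divided was not tested.

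Jak1 (chromosome 4, 101008838 to 101122487, minus strand), the partner of IL-4Rα, averaged 361 ± 3.77 CPM with IL-13 + DKK1, 395 ± 5.79 CPM with DKK1, 288 ± 8.80 CPM with IL-13 and 319 ± 8.26 CPM in untreated cells (SD, n = 3 each). No groups overlapped, and the order of means was that of Il4ra. Jak1 rose with DKK1 (log2 0.31 ± 0.03, adjusted p = 1.16e-07; 0.19 with library size alone) and fell with IL-13 (log2 -0.15 ± 0.03, adjusted p = 0.00115). Tyk2 (chromosome 9, 21015363 to 21042689, minus strand) lay between 118 and 137 CPM in all 12 libraries. It differed from untreated cells by 0.16 ± 0.04 with DKK1 (adjusted p = 5.61e-04), by 0.09 ± 0.04 with IL-13 (adjusted p = 0.0361) and by 0.06 ± 0.04 with both (adjusted p = 0.145). Its IL-13 value missed the threshold without untreated replicate 1 or 2 or IL-13 replicate 1 or 3 (adjusted p up to 0.127), with upper-quartile factors (0.05, adjusted p = 0.278) and with library size alone (0.07, adjusted p = 0.0841), a scaling under which the DKK1 value missed it too (0.05, adjusted p = 0.289).

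Stat6 (chromosome 10, 127477821 to 127496862, plus strand) was abundant in every group and changed little, with group means within 1.15-fold of each other. It had 277, 278 and 279.8 CPM with IL-13 + DKK1, 281, 274 and 276 CPM with DKK1, 259.7, 257 and 262 CPM with IL-13, and 309, 293 and 296 CPM in untreated cells. Untreated libraries were the highest and IL-13 libraries the lowest. Stat6 fell with IL-13 (log2 -0.21 ± 0.03, adjusted p = 1.75e-05), and differed from untreated cells by -0.11 ± 0.03 with DKK1 (adjusted p = 0.00741) and by -0.11 ± 0.03 with both (adjusted p = 0.0102). The DKK1 value missed the threshold without untreated replicate 1, DKK1 replicate 2 or DKK1 replicate 3 (adjusted p up to 0.0661), and the value with both missed it without untreated replicate 1 (adjusted p = 0.0791). With library size alone the DKK1 value was -0.23 and the value with both -0.17. Nab2 overlaps Stat6 on the other strand. It had 4499 counts with IL-13 + DKK1, 3301 with DKK1, 6014 with IL-13 and 4459 in untreated cells. Stat6 had 31257, 26637, 27678 and 32473 counts in the same order.

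Irs2 (chromosome 8, 11034681 to 11059499, minus strand) was lowest with DKK1 alone. It had 43.5, 43.2 and 39.7 CPM with IL-13 + DKK1, 27.2, 36.1 and 34.3 CPM with DKK1, 40.2, 43.7 and 43.0 CPM with IL-13, and 48.3, 47.4 and 47.2 CPM in untreated cells. The 3 DKK1 libraries were below all others, with the widest spread of any group. Irs2 fell with DKK1 to 0.683 of the untreated level (log2 -0.55 ± 0.08, adjusted p = 2.69e-06), and was higher with IL-13 + DKK1 than with DKK1 (log2 0.37 ± 0.08, adjusted p = 4.08e-04). Without DKK1 replicate 1, the lowest library, that difference was 0.24 (adjusted p = 0.00422). It differed from untreated cells by -0.17 ± 0.07 with IL-13 (adjusted p = 0.0639) and by -0.18 ± 0.07 with both (adjusted p = 0.051).

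Ptpn6 (chromosome 6, 124697670 to 124715840, minus strand) was lower with IL-13. It averaged 336 ± 9.54 CPM with IL-13 + DKK1, 412 ± 3.25 CPM with DKK1, 340.2 ± 15.1 CPM with IL-13 and 425 ± 4.23 CPM in untreated cells (SD, n = 3 each). The groups with IL-13 overlapped each other and lay below the groups without it. Ptpn6 fell with IL-13 (log2 -0.32 ± 0.04, adjusted p = 1.38e-07) and with both (log2 -0.34 ± 0.04, adjusted p = 4.85e-08), and differed by -0.05 ± 0.04 with DKK1 (adjusted p = 0.315). The DKK1 value passed the threshold with upper-quartile factors (-0.10, adjusted p = 0.0246) and with library size alone (-0.17, adjusted p = 6.89e-04).

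Levels were also divided by exon length, so that genes can be compared. The length was that of all annotated exons of a gene, 2965 bases for Ptpn6 and 9977 bases for Il4ra. How the ranks change with another length was not tested. Ptpn6 had the highest mean level in every group, at 113.3 CPM per kb with IL-13 + DKK1, 139 with DKK1, 115 with IL-13 and 143 in untreated cells. Il4ra came next where DKK1 was present, at 110.3 CPM per kb with IL-13 + DKK1, where its libraries overlapped those of Ptpn6, and at 113 with DKK1. It ranked 7 of 10 with IL-13, at 13.2 CPM per kb, and 4 of 10 in untreated cells, at 19.8. Il13ra1 was the lowest of the 10 with IL-13 + DKK1 (5.01 CPM per kb), with IL-13 (2.06) and in untreated cells (4.75), and Irs2 with DKK1 (4.42). Stat6 stayed at 38.8 to 44.8 CPM per kb in all groups.

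Counted over the 10 genes, 4 were called higher with DKK1 than in untreated cells (Il4ra, Il13ra1, Il2rg and Jak3), beside 5.18% of all genes, and 0 lower, beside 6.46%. At the adjusted p alone 7 rose, beside 22.6% of all genes, and 2 fell, beside 23.0%, and the median log2 fold change was 0.65, against -0.04 over all genes. With IL-13, 1 was called higher (Il2rg), beside 4.64%, and 1 lower (Il13ra1), beside 3.49%. At the adjusted p alone 3 rose, beside 23.9%, and 5 fell, beside 23.2% (median log2 fold change -0.16 against -0.02 over all genes). With IL-13 + DKK1, 4 were called higher than in untreated cells (Il4ra, Il2rg, Jak2 and Jak3), beside 5.24%, and 0 lower, beside 6.59%, and at the adjusted p alone 5 rose, beside 26.0%, and 2 fell, beside 23.5% (median 0.13 against -0.01). These 3 comparisons share the untreated libraries. The set was chosen with earlier results of these data known, so the shares beside its counts are a description only.

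In IL-13 + DKK1 over IL-13 cells 3 were called higher (Il4ra, Il13ra1 and Jak3), beside 4.66% of all genes, and 0 lower, beside 6.10%. At the adjusted p alone 7 rose, beside 22.5%, and 0 fell, beside 21.9% (median log2 fold change 0.42 against 0.00 over all genes). In IL-13 + DKK1 over DKK1 cells 0 were called higher, beside 3.22%, and Il13ra1 was called lower, beside 2.29%, while at the adjusted p alone 3 rose (Il2rg, Jak2 and Irs2), beside 20.2%, and 5 fell, beside 19.1% (median -0.07 against 0.01). In DKK1 over IL-13 cells Il4ra, Il13ra1 and Jak3 were called higher, by 8.60-fold, 6.49-fold and 3.12-fold (adjusted p = 1.04e-21, 3.04e-17 and 1.31e-15, edgeR), beside 6.76% of all genes, and 0 were called lower, beside 8.60%. At the adjusted p alone 7 were higher there, beside 26.6%, and Irs2 was lower, beside 28.0% (median 0.23 against -0.01).

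**Figure D3:**
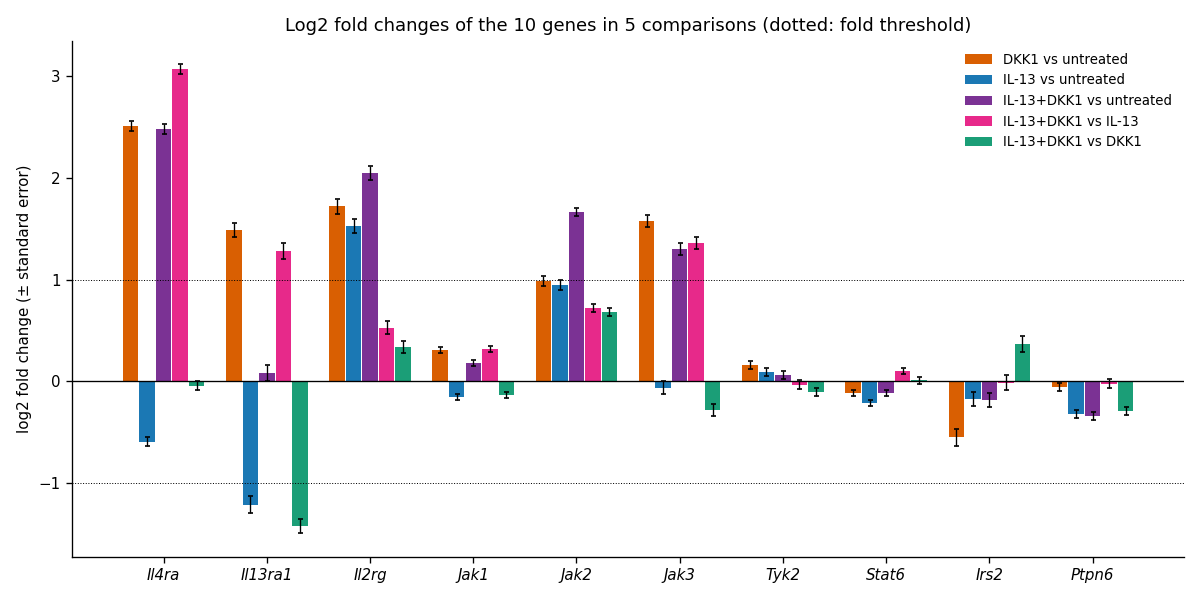
Log2 fold change ± SE (y axis) of the 10 genes (x axis) in 5 comparisons (colours), with dotted lines at the fold threshold. For Il4ra the bars stand at 2.51 for DKK1, -0.59 for IL-13 and 2.48 for both against untreated cells, and for Stat6 every bar lies within 0.21 of 0.

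The design also allows the DKK1 effect beside IL-13 to be set against the DKK1 effect without it, as an interaction in the same fit, which is equally the change in the effect of IL-13. Only Il2rg was called, as lower, beside 2.50% of all genes, and 0 were called higher, beside 2.12%. Its DKK1 effect was 0.53 ± 0.06 with IL-13 and 1.72 ± 0.07 without, a difference of -1.19 ± 0.10 on the log2 scale (adjusted p = 4.05e-09). Its IL-13 effect was likewise 0.34 ± 0.06 with DKK1 and 1.53 ± 0.07 without. The level with both factors was thus below the sum of the single log2 effects.

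At the adjusted p alone 6 of the 10 interactions passed, beside 26.3% of all genes. The DKK1 effect on Il4ra was larger with IL-13 by 0.55 ± 0.06 (adjusted p = 4.18e-07). That on Irs2 was -0.01 ± 0.07 with IL-13 and -0.55 ± 0.08 without, a difference of 0.54 ± 0.11 (adjusted p = 4.67e-04). That on Stat6 was 0.10 ± 0.03 with IL-13 and -0.11 ± 0.03 without, a difference of 0.21 ± 0.05 (adjusted p = 0.00129). The differences for Jak2 (-0.27 ± 0.06, adjusted p = 0.00237) and Tyk2 (-0.19 ± 0.05, adjusted p = 0.00565) were negative. For Il13ra1 the difference was -0.21 ± 0.11 (adjusted p = 0.188), for Jak3 -0.22 ± 0.09 (adjusted p = 0.0719), for Jak1 0.02 ± 0.05 (adjusted p = 0.842) and for Ptpn6 0.03 ± 0.05 (adjusted p = 0.747). The Jak3 value passed the threshold under 5 of 18 alternatives, RLE factors and DESeq2 among them (adjusted p from 0.0294 to 0.251).

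**Figure D4:**
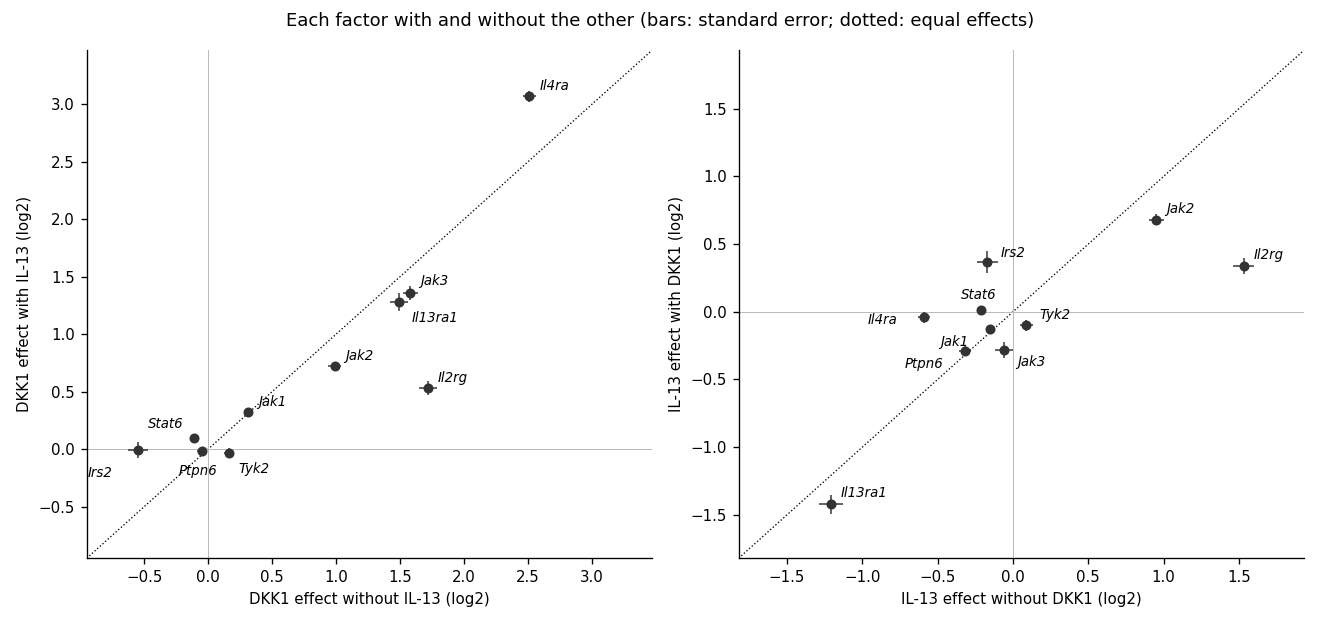
Log2 effect of DKK1 (left) and of IL-13 (right) on each of the 10 genes with the other factor (y axis) and without it (x axis), with bars for SE and a dotted line where both are equal. Il2rg lies below the line in both panels, at 0.53 and 1.72 on the left and at 0.34 and 1.53 on the right, while Il4ra lies above it on the left, at 3.07 and 2.51.

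Other genes of the pathway were taken from a list of 39 (other STATs, feedback inhibitors, phosphatases, adaptors, PI3K subunits and coactivators), also chosen with earlier results of these data known. Of these 37 were tested, and Il13 and Il13ra2 were not found by name in the count table. With DKK1 9 were called higher, beside 5.18% of all genes, and 0 lower, beside 6.46%, with a median log2 fold change of 0.20 against -0.04 over all genes. With IL-13 4 were called higher, beside 4.64%, and 0 lower, beside 3.49% (median -0.05 against -0.02). With both, 9 were called higher than in untreated cells, beside 5.24%, and 0 lower, beside 6.59% (median 0.11 against -0.01). Over IL-13 cells 7 were called higher with both, beside 4.66%, and 0 lower, beside 6.10% (median 0.11 against 0.00). In IL-13 + DKK1 over DKK1 cells 3 were called higher (Socs1, Socs2 and Cish), beside 3.22%, and 1 lower (Stat4), beside 2.29% (median -0.06 against 0.01). In DKK1 over IL-13 cells 6 were called higher, beside 6.76%, and 3 lower (Cish, Socs2 and Dok2), beside 8.60% (median 0.15 against -0.01). The genes called were mostly feedback inhibitors and other STATs.

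Il4, which encodes the ligand IL-4, was at a low level, with 1.78 ± 0.243 CPM with IL-13 + DKK1, 2.76 ± 0.572 CPM with DKK1, 0.968 ± 0.0719 CPM with IL-13 and 1.55 ± 0.136 CPM in untreated cells (SD, n = 3 each). It was called higher in DKK1 over IL-13 cells (log2 1.51 ± 0.24, adjusted p = 1.10e-05), on 265 and 103 counts. Stat4 was lower still, at 0.318 ± 0.130 CPM with IL-13 + DKK1, against 1.06 ± 0.475 CPM with DKK1 (log2 -1.72 ± 0.50, adjusted p = 0.00861).

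Socs1, whose product blocks Janus kinases, had 40.1, 40.1 and 40.6 CPM with IL-13 + DKK1, 6.19, 7.94 and 7.44 CPM with DKK1, 12.5, 11.7 and 13.1 CPM with IL-13, and 1.58, 2.14 and 1.74 CPM in untreated cells. No groups overlapped, and the level with both was the highest. It rose by log2 1.99 ± 0.13 with DKK1 (adjusted p = 1.48e-11), 2.78 ± 0.12 with IL-13 (adjusted p = 4.10e-14) and 4.47 ± 0.11 with both (adjusted p = 2.36e-18). Socs3, an inhibitor best known for the IL-6 receptor, averaged 101 ± 2.89 CPM with IL-13 + DKK1, 201 ± 1.33 CPM with DKK1, 5.48 ± 0.803 CPM with IL-13 and 5.95 ± 1.42 CPM in untreated cells (SD, n = 3 each). It rose with DKK1 (log2 5.07 ± 0.09, adjusted p = 2.97e-20) and differed by -0.13 ± 0.12 with IL-13 (adjusted p = 0.409).

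Cish, an inhibitor of the same family induced by STAT5, averaged 9.67 ± 0.723 CPM with IL-13 + DKK1, 3.11 ± 0.235 CPM with DKK1, 7.70 ± 0.284 CPM with IL-13 and 0.235 ± 0.141 CPM in untreated cells, where it had 25 counts over 3 libraries. It rose with IL-13 (log2 5.04 ± 0.23, adjusted p = 1.08e-13) and with DKK1 (log2 3.73 ± 0.25, adjusted p = 4.16e-11). Socs2 rose with IL-13 too (log2 2.76 ± 0.15, adjusted p = 2.44e-12) and with DKK1 (log2 1.29 ± 0.16, adjusted p = 9.67e-07). Both were called in the interaction, Cish at -3.40 ± 0.30 (adjusted p = 1.79e-08) and Socs2 at -1.51 ± 0.21 (adjusted p = 8.44e-06), and were the only 2 of the list, beside 2.50% of all genes called lower.

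Tfec, which encodes a transcription factor known to act on Il4ra in macrophages, had 156, 160.1 and 165 CPM with IL-13 + DKK1, 106, 112 and 114 CPM with DKK1, 72.9, 76.5 and 83.2 CPM with IL-13, and 40.0, 45.6 and 44.1 CPM in untreated cells. No groups overlapped. It rose with DKK1 (log2 1.35 ± 0.05, adjusted p = 4.52e-15) and with IL-13 (log2 0.84 ± 0.05, adjusted p = 2.55e-11). Il4ra fell with IL-13, and the part of Tfec in the level of Il4ra was not tested. Of the other STATs, DKK1 raised Stat2 (log2 1.87 ± 0.08, adjusted p = 7.66e-15) and Stat3 (log2 1.39 ± 0.05, adjusted p = 2.18e-16). Dok2, an adaptor of tyrosine kinase signaling, was called with IL-13 (log2 1.46 ± 0.06, adjusted p = 1.11e-14) and differed by 0.83 ± 0.06 between IL-13 + DKK1 and DKK1 cells (adjusted p = 1.65e-10).

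**Figure D5:**
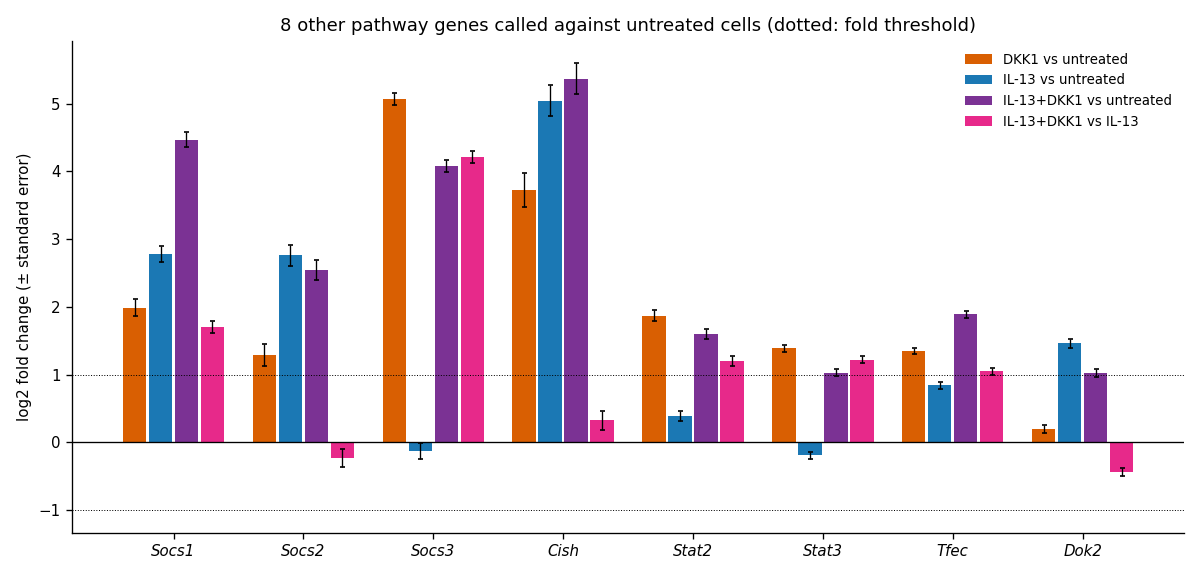
Log2 fold change ± SE (y axis) of 8 other pathway genes (x axis) in 4 comparisons (colours), with dotted lines at the fold threshold. Socs1 stands at 1.99 for DKK1, 2.78 for IL-13 and 4.47 for both against untreated cells, and Socs3 at 5.07, -0.13 and 4.08.

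Of 24 listed genes known to be induced through STAT6, 23 were tested. In the study's STAT6 knockout BMDMs, the Arg1 mRNA rise with DKK1 was unaffected, and that of Ccl22 was lowered significantly but not markedly. Which of the listed genes moved through STAT6 in these libraries was not tested. This list too was chosen with earlier results of these data known, so its counts and medians are a description only. With IL-13 17 were called higher, beside 4.64% of all genes, and 1 lower (Alox15), beside 3.49%, with a median log2 fold change of 2.71 against -0.02 over all genes, and Retnla (8.06), Arg1 (5.54), Egr2 (3.13) and Flt1 (2.71) among them. With DKK1 4 were called higher (Arg1 4.51, Ccl22 3.01, Pdcd1lg2 1.80, and Ccl17 with 11 counts with DKK1 and 0 in untreated cells), beside 5.18%, and 5 lower, beside 6.46%, among them Pparg (-4.03), Flt1 (-3.36), Myc (-2.90) and Egr2 (-2.61), with a median of -0.25 against -0.04. Both medians were the same with Ccl17 set to its bound, against a floor of 3 counts over the untreated group. In IL-13 + DKK1 over untreated cells 13 were called higher, beside 5.24%, and 2 lower, beside 6.59% (median 1.14 against -0.01). In IL-13 + DKK1 over DKK1 cells 16 were called higher, beside 3.22%, and 0 lower, beside 2.29% (median 1.87 against 0.01). In DKK1 over IL-13 cells 0 were called higher, beside 6.76%, and 18 lower, beside 8.60% (median -3.41 against -0.01). In IL-13 + DKK1 over IL-13 cells 3 were called higher, Arg1 (2.06), Mrc1 (1.09) and Ccl24 (1.49), beside 4.66%, and 9 lower, among them Retnla (-7.30), Irf4 (-3.93), Pparg (-3.50) and Egr2 (-2.56), beside 6.10% (median -0.75 against 0.00). Retnla, a secreted marker of alternative activation, had 1.48, 1.98 and 2.16 CPM with IL-13 + DKK1, against 219, 345 and 327 CPM with IL-13. Arg1, which encodes the arginine-degrading enzyme arginase 1, had 2861, 2838 and 2855 CPM with IL-13 + DKK1, against 625, 686 and 740.3 CPM with IL-13. The listed genes moved in both directions in this comparison, in which Il4ra was 8.38-fold and Il13ra1 2.43-fold higher. Arg1 had also risen with DKK1 alone (log2 4.51). The part of the receptor chains in these changes was not tested.

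The genes whose pattern was most like that of each chain were taken by Pearson's r of log2 CPM over the 12 libraries, among 11198 genes averaging at least 100 counts. The libraries fall into 4 groups, so these values describe shared group differences and carry no p. For Il4ra they were Slc39a14 (r = 0.996), which encodes a zinc and iron importer, Slc31a1 (0.996), a copper importer, and Fcer1g (0.994), the common γ chain of Fc receptors. For Il13ra1 they were Arhgap24 (0.995), Clec4n (0.994), the mouse Dectin-2 gene, and Emb (0.992). For Il2rg they were Pi4k2a (0.995), Slc15a3 (0.991) and Cd274 (0.990), which encodes PD-L1. Those nearest to Stat6 were Rnf11 (0.978), 2610507B11Rik (0.973) and Pik3ap1 (0.972), and those nearest to Irs2 were Id3 (0.965), Ndufaf7 (0.939) and Kif16b (0.936).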

How the data were processed

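RNA of 12 BMDM cultures was sequenced after ribosomal RNA depletion with a stranded kit. The authors aligned the reads with STAR 2.7.6a to GRCm39 after FastQC 0.11.9 and deposited featureCounts counts of 17723 genes. The sources used here do not name the annotation or the strand setting of the counting, so overlapping and antisense genes are uncertain. Nothing says from how many mice the replicates came, so p-values measure the spread between these samples, which may be technical. Totals were 32224036 to 40917086 counts, and no gene peaked below 11. Of counts from 1 to 20, 76.0% were even, so the number of independent molecules behind a low count is unknown.

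The deposited counts were filtered with filterByExpr (minimum count 10, total 15), TMM-scaled, and fitted with edgeR 4.0.16 in R 4.3.3 over all 12 libraries with 1 mean per group and Benjamini-Hochberg adjustment over 16306 genes. The study's threshold was used (adjusted p under 0.05, absolute log2 fold change above 1; the study's DESeq2 was 1.30.0). SE is the absolute log2 fold change over the root of F. Named were all 10 genes, the called genes of the pathway list with the smallest adjusted p (up to 6 per direction), up to 4 STAT6 targets per direction, and the 3 genes nearest each of 5 members. The CPM printed for Retnla and Arg1 and the ATGNAAAT motif were chosen after seeing the data. Of the called genes, 1 of the pathway list is not reported here. Members and lists were chosen with earlier results of these data known. Positions come from GENCODE vM39 (99.6% of IDs matched), and upstream sequences from RefSeq on GRCm38.p6, which held all 10 genes. Alternatives were RLE, upper-quartile and no scaling factors, no filter, DESeq2 1.42.0, a replicate block, 2 groups only, and each library left out. The fit was tested on simulated data.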

Additional observations from a re-analysis of the deposited data

Results flagged for a closer look

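The effect of DKK1 differed with and without IL-13 for 6 of the 10 genes (edgeR's interaction test, adjusted over all genes). The log2 effect with IL-13 minus that without was -1.19 for Il2rg, 0.55 for Il4ra, 0.54 for Irs2, 0.21 for Stat6, -0.27 for Jak2 and -0.19 for Tyk2. For Il4ra the IL-13 effect was -0.04 with DKK1 and -0.59 without, and for Irs2 it was 0.37 with DKK1 and -0.17 without. The value for Tyk2 missed the threshold without scaling factors (adjusted p = 0.0755). That for Jak3, not among the 6, passed it under 5 of 18 alternatives.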

How the results depend on the processing

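The numbers of the 10 genes called stayed within 1.5 times under all 19 alternatives, and no called gene lost its call or its direction. Jak2 became called with DKK1 (1.00 to 1.03) in 5 of 12 fits without 1 library. The other 26 changes were changes of sign in values near 0. With RLE factors and with DESeq2, Stat6 was -0.01 in IL-13 + DKK1 over DKK1 cells and the interaction of Jak1 was -0.00. With library size alone, Il4ra was 0.02 in IL-13 + DKK1 over DKK1 cells, and Stat6 was -0.01, Jak2 -0.07 and Tyk2 -0.03 in DKK1 over IL-13 cells. That scaling moved the median of all genes to -0.16 in DKK1 over untreated cells (-0.04 with TMM) and to -0.11 in DKK1 over IL-13 cells (-0.01 with TMM), and the cause was not tested.

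Leaving out 1 library at a time, signs also changed in IL-13 + DKK1 over IL-13 cells for Ptpn6 (-0.05 to 0.01) and Irs2 (-0.04 to 0.02), in IL-13 + DKK1 over DKK1 cells for Stat6 (-0.02 to 0.01), in DKK1 over IL-13 cells for Jak2 (-0.01 to 0.06), and in the interaction for Jak1 (-0.02 to 0.04) and Ptpn6 (-0.02 to 0.05). At the adjusted p alone, Irs2 with both factors over untreated cells passed under 8 of 19 alternatives (adjusted p from 0.00699 to 0.212), and with IL-13 under 5 (0.021 to 0.204). In IL-13 + DKK1 over IL-13 cells the rise of Stat6 missed the threshold under 2 of 19 alternatives (adjusted p up to 0.148). In IL-13 + DKK1 over DKK1 cells the fall of Tyk2 missed it under 4 and that of Jak1 under 1. In DKK1 over IL-13 cells the higher value of Stat6 missed it under 2.

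Replicate numbers did not reach the correlation of 0.1 taken as pairing: that of deviations from group means was -0.064 to 0.082 for libraries of the same number. As a hint from the data, 21 of 36 matches of a library with another group were best with its own number, where 12 would be if the numbers carried nothing. With the replicate number as a block, 4, 2, 4, 3, 1, 3 and 1 of the 10 genes were called in the order DKK1, IL-13 and both over untreated cells, IL-13 + DKK1 over IL-13 and over DKK1 cells, DKK1 over IL-13 cells, and the interaction. The block changed no such call; at the adjusted p alone it brought Irs2 past the threshold with IL-13 and with both factors.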
